A study of Mus musculus with 14 samples.

Results

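The immunoglobulin variable (V) gene segments are the germline pieces from which B cells build the antigen-binding ends of antibodies. They were taken as every gene of the deposited spleen comparison whose symbol starts with Ighv (heavy chain), Igkv (kappa light chain) or Iglv (lambda light chain). This gave 173 segments, 85 Ighv, 85 Igkv and 3 Iglv, of the 16836 genes in that table. Of the 173, 3 are annotated as pseudogenes, and 1 of these is among the segments called higher below. The full count table names 348 V segments, and the 173 held between 98.2% and 99.3% of the V reads of each spleen library. The 3 least abundant segments inside the table, Ighv15-2, Igkv4-81 and Ighv1-67, had 82, 85 and 91 reads over the 8 libraries, and the 3 most abundant outside it, Igkv1-99, Igkv12-38 and Ighv1-23, had 76, 73 and 72.

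Poly(A) RNA was sequenced from spleens of 4 wild-type mice (2 female, 2 male) and 4 L2-fKO mice (1 female, 3 male), and from ovaries of 3 mice of each genotype, with 1 animal per library. L2-fKO mice, which the labels name L2-cKO, carried 2 recombined Zfp36l2 alleles after crosses of a floxed line, with loxP sites around exon 2, to a CMV-Cre line, in which Cre is active across tissues. The wild-type littermates carried both intact Zfp36l2 copies and the CMV-Cre transgene too, so every animal of both genotypes had Cre. The labels call the spleen source a spleen organoid, give no age, and place L2-fKO spleen 3 and L2-fKO ovary 1 in the same animal. The paper states that the spleens it profiled came from pups in their first days of life. The spleen levels below are therefore not those of adult spleen. Zfp36l2, which encodes an RNA-binding protein that destabilizes mRNAs with adenine-uridine rich elements, had normalized counts of 7394, 4773, 6429 and 4362 in the wild-type spleens and 278, 326, 349 and 405 in the L2-fKO spleens, and in the ovaries values of 4745 to 4906 and 758 to 1011, so each library matched its genotype label. The spleen libraries had 39138010 to 45167464 reads on genes. Of the 5 genes of the spleen list 4 were tested and Ccl21a was at 0 in all 8 libraries, the list summed to 2352 to 5044 normalized counts per spleen library, and the ovary marker list summed to at most 37.5 normalized counts there.

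In a developing B cell, V(D)J recombination joins 1 V segment, a D segment on the heavy chain only, and a J segment, and the joined exon is then spliced to a constant region. The heavy chain locus lies on mouse chromosome 12, the kappa locus on chromosome 6 and the much smaller lambda locus on chromosome 16. Most V transcripts of a spleen come from B cells and from the plasma cells that B cells become, in which antibody mRNA is very abundant. In whole tissue, fewer cells of a type and less RNA per cell cannot be told apart, and this holds for every V level below. A clone of B cells that has expanded carries the same V segment in all its cells, so the levels of single segments can differ widely between animals.

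V segments are close relatives, and a read from one may match another. Of the 50-base stretches of a segment's transcript, a median of 77.6% occurred in the transcripts of no other gene (range 7.5% to 100%), and of the 100-base stretches a median of 100% did (37.1% to 100%). Only unique reads were counted, so a segment with few unique stretches is under-counted and its split from its relatives is uncertain. The ends of 5 segments are printed here because they were called higher in L2-fKO in every fit that left out 1 library (described below). Each is the last 120 bases of the germline V exon in GENCODE M21 (GRCm38), 5′ to 3′ on the coding strand. Capitals mark the conserved cysteine codon at the start of the third complementarity determining region, the loop that contacts antigen most directly.
Ighv2-9-1: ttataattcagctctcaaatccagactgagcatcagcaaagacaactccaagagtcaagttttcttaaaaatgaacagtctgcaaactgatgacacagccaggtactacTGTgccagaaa
Ighv7-1: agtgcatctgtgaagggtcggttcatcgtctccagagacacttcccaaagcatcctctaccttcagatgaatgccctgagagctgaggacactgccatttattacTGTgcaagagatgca
Ighv2-4: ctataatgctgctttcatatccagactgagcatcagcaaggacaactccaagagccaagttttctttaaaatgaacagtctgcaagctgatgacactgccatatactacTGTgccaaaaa
Igkv16-104: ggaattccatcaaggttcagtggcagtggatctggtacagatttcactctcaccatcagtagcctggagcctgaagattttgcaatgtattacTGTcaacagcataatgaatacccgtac
Igkv8-30: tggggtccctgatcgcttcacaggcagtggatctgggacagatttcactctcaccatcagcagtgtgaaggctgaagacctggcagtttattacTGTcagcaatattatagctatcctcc
They lie at chr12:113769850-113769969, chr12:113896408-113896527 and chr12:113653291-113653410, all on the minus strand, at chr6:68425953-68426072 on the plus strand and at chr6:70117061-70117180 on the minus strand. Ighv7-1 and Igkv16-104 shared no 50-base stretch with another gene. Ighv2-9-1 was 91.3% identical over its transcript to Ighv2-9, and in the printed stretch the pair differed at 6 bases, which are capitals in the next pair of lines.
Ighv2-9-1 against Ighv2-9: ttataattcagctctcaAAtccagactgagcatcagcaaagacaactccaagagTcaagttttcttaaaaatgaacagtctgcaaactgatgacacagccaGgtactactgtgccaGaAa
Ighv2-9: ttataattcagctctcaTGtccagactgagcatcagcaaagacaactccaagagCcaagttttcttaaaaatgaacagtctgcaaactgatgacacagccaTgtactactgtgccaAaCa
Ighv2-4 was 97.2% identical to Ighv2-2, and 44.5% of its 50-base stretches were unique, so its split from Ighv2-2 is less certain.

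V segment counts were mostly higher in L2-fKO spleens, for heavy and kappa chains more than for lambda. The summed Ighv normalized counts averaged 4977 ± 3024 (SD, n = 4) in wild type and 10783 ± 4700 (n = 4) in L2-fKO, a ratio of 2.17. The summed Igkv counts averaged 7897 ± 5059 and 15808 ± 6172, a ratio of 2.00. The summed Iglv counts averaged 1767 ± 1023 and 2482 ± 767, a ratio of 1.41. The 2 genotypes overlapped in all 3 sums. Over all 173 segments the sums were 27899, 12401, 7390 and 10874 in wild-type spleens 1 to 4 and 28732, 22178, 19920 and 45461 in L2-fKO spleens 1 to 4. Wild-type spleen 1 stood within the L2-fKO range, and the other 3 wild-type spleens were below every L2-fKO spleen.

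**Figure D1:**
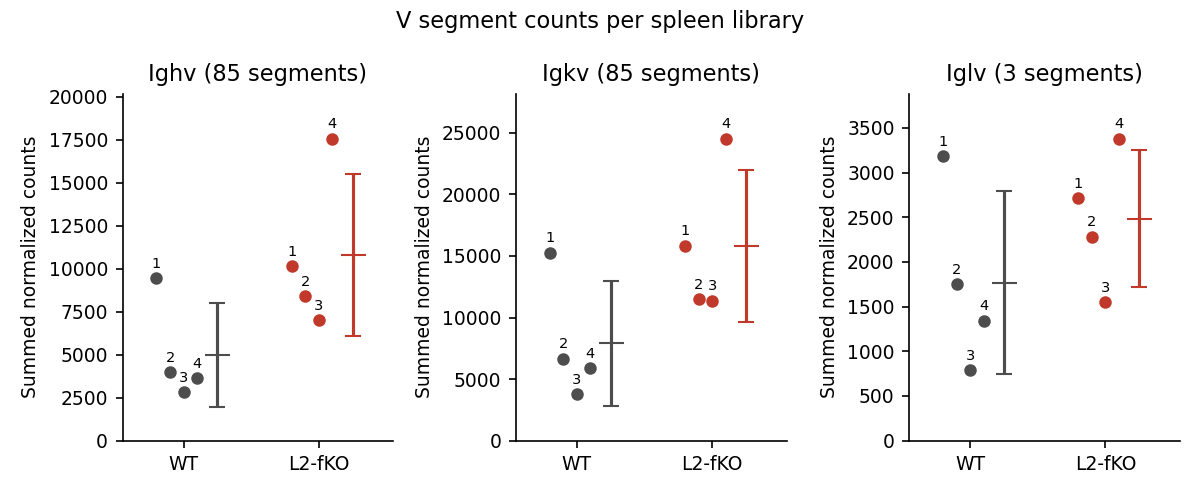
Summed normalized counts of the Ighv, Igkv and Iglv segments (y axes, from 0) in each spleen library, numbered by replicate, with the mean and SD of each genotype (n = 4) to the right of the points. Wild-type spleen 1, with 27899 counts over all segments, lies among the L2-fKO spleens, and L2-fKO spleen 4, with 45461, is the highest.

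Each segment was tested within a fit of all spleen genes, and a call needed both an adjusted p (Benjamini-Hochberg) under 0.05 and a log2 fold change beyond 1 in size. Of the 173 segments 170 passed the filter of at least 10 counts in at least 4 libraries, 1 of them, Igkv4-81, through the L2-fKO libraries alone. By edgeR's quasi-likelihood test 25 were called higher in L2-fKO, 12 Ighv, 13 Igkv and no Iglv, where 2.9% of all 16911 genes tested were called higher. None was called lower, where 3.11% of all genes were, and none was below 0 at an unadjusted p under 0.05, while 62 were above 0 at that limit. The log2 fold change was above 0 in 156 of the 170, with a median of 0.86, against a median of -0.0203 over all genes tested. In 21 segments all L2-fKO libraries lay above all wild-type ones, as in 9.61% of all genes, and in none was every L2-fKO library below, as in 10.8% of all genes. Igkv4-81 is among the 25 and among the 21. Its L2-fKO counts alone brought it into the test, so its call carries no weight. DESeq2's Wald test called 47 higher and none lower, where it called 3.24% of all genes higher. The segments share B cells as a source and are not independent of each other. By comparison, the 28 T cell receptor V segments of the table, which are rearranged by the same enzymes in T cells, had a median log2 fold change of 0.10, and none was called. Their values ran from -2.05 to 0.76. In 1 of the 28 every L2-fKO library was below every wild-type one, and 2 were below 0 at an unadjusted p under 0.05 in edgeR's test.

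The library that was left out decided how many segments were called. In 167 of the 173 segments the highest of the wild-type values was that of spleen 1, at a median of 2.92 times the median of the other 3. Without it 75 of the 167 segments tested were called higher (39 Ighv, 36 Igkv) where 3.29% of all genes were, and 24 of the 25 were among them. The remaining one, Igkv4-54, fell below the filter in that fit and was not tested. Leaving out another wild-type library lowered the count to 8 without spleen 2, 11 without spleen 3 and 5 without spleen 4, where 2.08%, 3.45% and 1.99% of all genes were called higher in the same fits. The 5 of the fit without wild-type spleen 4 are thus a share near that of all genes. Leaving out an L2-fKO library gave 8 without spleen 1, 17 without spleen 2, 20 without spleen 3 and 18 without spleen 4, against 2.12%, 2.33%, 2.52% and 2.55% of all genes. None of these fits called a segment lower. L2-fKO spleen 4 was the highest L2-fKO library in 146 of the 173, and without both it and wild-type spleen 1 the count was 74 (3.34% of all genes). The sexes were not balanced. With sex as a covariate 15 segments were called higher, against 2.84% of all genes, and in the 5 male libraries alone 61 were, against 4.23%.

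**Figure D2:**
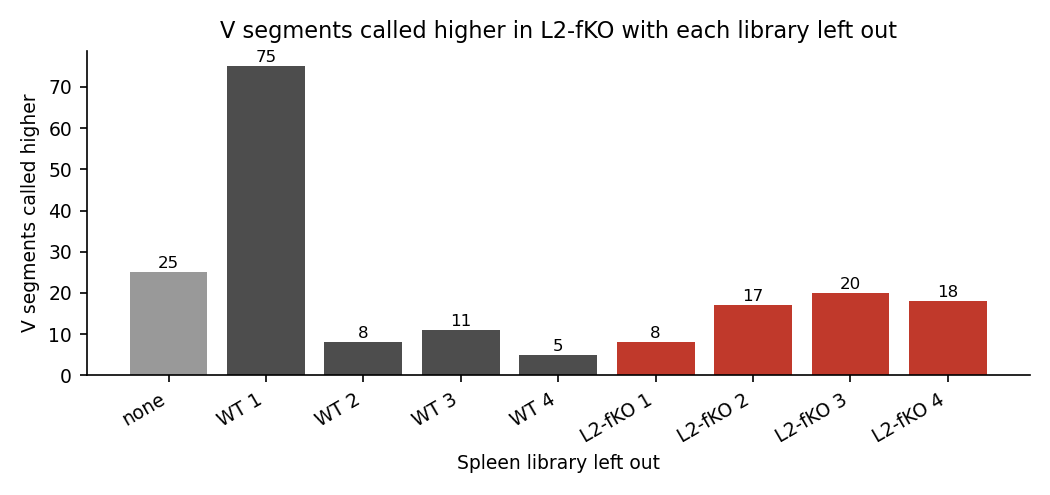
Number of V segments called higher in L2-fKO spleen (y axis, from 0) with all 8 libraries and with the library named on the x axis left out. The count was 25 with all libraries, between 5 and 20 without any single library other than wild-type spleen 1, and 75 without that one.

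The 5 segments called in all 8 of these fits included 4 abundant ones. Ighv2-9-1 had normalized counts of 81.1, 64.7, 39.8 and 56.6 in the wild-type spleens and 455, 496, 192 and 401 in the L2-fKO spleens. Its log2 fold change of 2.67 ± 0.33 (SE) had an adjusted p of 0.000886 in edgeR's test, and the genotypes did not overlap. Ighv7-1 had 110, 69.7, 43.7 and 27.3 in wild type and 316, 292, 292 and 466 in L2-fKO. The log2 fold change came to 2.44 ± 0.38 with an adjusted p of 0.00348 in edgeR's test, and its lowest L2-fKO value was over its highest wild-type value.

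Igkv16-104 had 244, 140, 88.5 and 68.7 counts in wild type and 838, 852, 361 and 756 in L2-fKO. L2-fKO spleen 3 was its lowest knockout library and still above every wild-type library, and it differed by 2.37 ± 0.41 on the log2 scale (edgeR adjusted p 0.00570). Igkv8-30 had 337, 267, 224 and 183 in wild type and 716, 449, 615 and 1230 in L2-fKO. The difference was 1.58 ± 0.31 on the log2 scale (edgeR adjusted p 0.0101), again with no overlap. Ighv2-4, at a lower level and named after its values were seen, had 9.43, 6.06, 11.9 and 8.09 in wild type and 35.5, 65.4, 43.5 and 33.3 in L2-fKO, a log2 fold change of 2.30 ± 0.33 (edgeR adjusted p 0.00202). Wild-type spleen 1, the highest wild-type library for nearly all segments, was not so for Ighv2-4.

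The 4 abundant ones were among the 10 called segments with the largest changes and a mean of at least 100 in L2-fKO. The others of these 10 were Igkv7-33, Igkv15-103, Ighv2-5, Ighv5-17, Igkv2-109 and Igkv4-57, with log2 fold changes from 1.59 to 1.98. Some called segments below that mean, such as Igkv4-54 at 2.46, had larger changes. Igkv15-103, the neighbour of Igkv16-104 on chromosome 6, had 241, 97.0, 64.6 and 71.8 counts in wild type and 622, 363, 306 and 550 in L2-fKO, without overlap. It shared no 50-base stretch with another gene. Igkv7-33 ranged from 10.1 to 50.9 in wild type and from 56.4 to 170 in L2-fKO, and its lowest L2-fKO value was close to its highest wild-type value. Igkv4-57 overlapped between genotypes, with 255 in wild-type spleen 1 and 219 in L2-fKO spleen 2. All 6 lost their call without wild-type spleen 2 and without wild-type spleen 4, at edgeR adjusted p from 0.0553 to 0.104. All but Igkv15-103 lost it without wild-type spleen 3, and all but Igkv7-33 without L2-fKO spleen 1. Single calls were also lost without L2-fKO spleen 2 (Igkv7-33 and Ighv2-5), 3 (Igkv4-57 and Igkv7-33) and 4 (Igkv2-109).

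**Figure D3:**
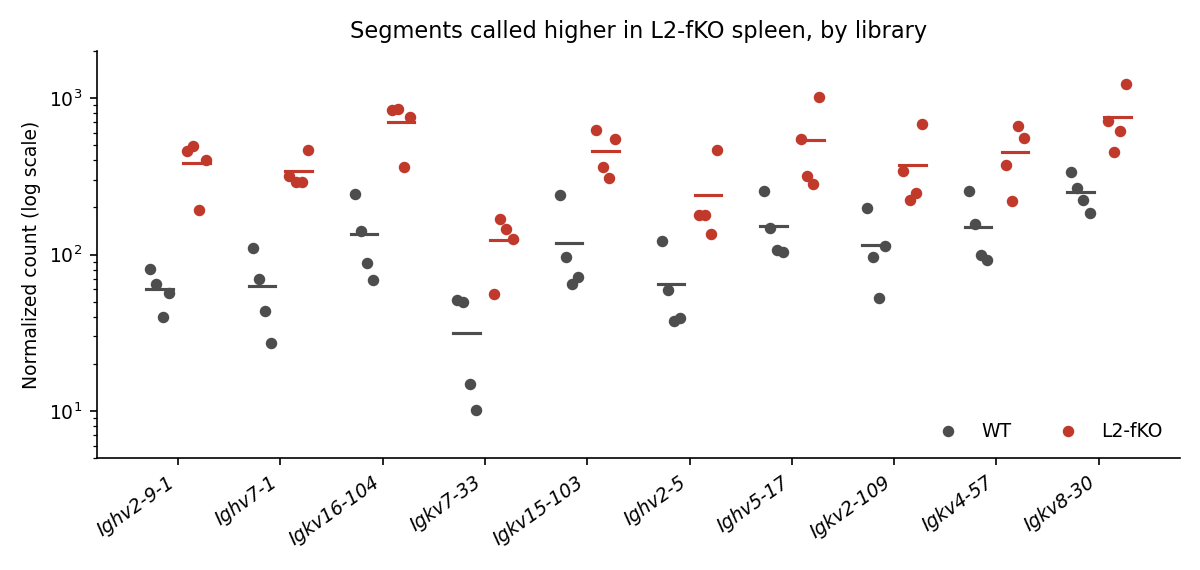
Normalized counts (y axis, log scale) of the 10 called segments with the largest log2 fold changes and a mean of at least 100 in L2-fKO (x axis, in order of fold change), 1 point per spleen library and a bar at each genotype's mean. The groups are apart in 9 segments and overlap in Igkv4-57.

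Per kilobase of exon, which allows segments to be compared, the lambda segment Iglv1 was the highest of all, at a mean of 3776 normalized counts per kb over the 8 spleens. Next came Igkv1-110 (1843), Igkv1-117 (1699), Igkv1-135 (1579), Igkv10-96 (1481), Igkv8-30 (1365) and Iglv2 (1299). The highest heavy chain segments were Ighv3-6 (918), Ighv5-17 (854), Ighv14-2 (839), Ighv1-26 (837), Ighv10-1 (816) and Ighv9-3 (721), whose levels lay within the spread between libraries of each other. These means pool the genotypes, and the order differed between them. In wild type Iglv1 (3005) was followed by Igkv1-117 (1175), Iglv2 (1096) and Igkv1-110 (994), and in L2-fKO Iglv1 (4547) by Igkv1-110 (2692), Igkv1-135 (2244) and Igkv1-117 (2222). Among heavy segments Ighv3-6 (582), Ighv1-26 (569), Ighv9-3 (526) and Ighv2-2 (518) led in wild type, where Ighv5-17 stood at 378, while Ighv5-17 (1329) led in L2-fKO ahead of Ighv3-6 (1254). Igkv1-110 ranged from 268 to 644 normalized counts in wild type and from 669 to 1767 in L2-fKO, and was called higher at a log2 fold change of 1.44 ± 0.35 (edgeR adjusted p 0.0263). It is 96.8% identical to Igkv1-117, which ranged from 235 to 969 and from 609 to 1261 and was not called (log2 fold change 0.92 ± 0.42). Of the 6 highest heavy segments Ighv5-17, Ighv14-2 and Ighv10-1 were called, at log2 fold changes of 1.81, 1.34 and 1.51. Ighv3-6, Ighv1-26 and Ighv9-3 had values of 1.11, 0.96 and 0.80 and were not. Without wild-type spleen 1 all 3, and Igkv1-117, Igkv1-135 and Igkv10-96 as well, passed, at 1.42 to 1.80, while Igkv1-110, Ighv5-17, Ighv14-2 and Ighv10-1 were each no longer called if L2-fKO spleen 1 or any of wild-type spleens 2 to 4 was dropped, and Ighv14-2 and Ighv10-1 also without L2-fKO spleen 2.

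The 3 lambda segments were not called. Iglv1 had 2074, 1152, 565 and 910 normalized counts in wild type and 1886, 1624, 1087 and 2515 in L2-fKO, with a log2 fold change of 0.60 ± 0.37. Iglv2 had 669, 452, 162 and 322 against 667, 515, 377 and 639, with 0.45 ± 0.37. Iglv3, the most distinct lambda segment, had 441, 147, 64.6 and 110 against 162, 146, 85.8 and 226, with -0.30 ± 0.54. All 3 overlapped between genotypes, and the Iglv3 value turned to 0.53 without wild-type spleen 1. Iglv1 and Iglv2 are 90.8% identical over their transcripts, and the last 120 bases of their V exons, at chr16:19085017-19085136 and chr16:19260401-19260520 on the minus strand, differ at 4 bases, shown in capitals because reads of this end are hard to assign.
Iglv1: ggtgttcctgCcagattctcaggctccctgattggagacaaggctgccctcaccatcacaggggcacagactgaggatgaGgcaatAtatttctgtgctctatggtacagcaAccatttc
Iglv2: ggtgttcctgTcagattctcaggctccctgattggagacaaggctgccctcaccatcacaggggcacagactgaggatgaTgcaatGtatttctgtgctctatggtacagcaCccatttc

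As a share of light chain V use, lambda was lower in L2-fKO. Per kb, Iglv made up 16.8%, 20.3%, 16.9% and 17.99% of light chain V counts in wild-type spleens 1 to 4 (mean 17.99% ± 1.64, SD) and 14.2%, 16.2%, 11.6% and 11.7% in L2-fKO spleens 1 to 4 (13.5% ± 2.20). The highest L2-fKO share was just under the lowest wild-type share, so the genotypes did not overlap, and a share summed over segments was given no test. Within lambda, the Iglv3 share was 9.73% ± 2.83 in wild type and 6.20% ± 0.52 in L2-fKO, without overlap, while the Iglv1 and Iglv2 shares overlapped. The heavy chain share of all V counts per kb was 34.8% ± 2.79 and 37.2% ± 1.77 and overlapped.

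With all 8 libraries, the size of the difference went with position along the locus in opposite senses on the 2 large loci, and for the heavy chain this rested largely on wild-type spleen 1. On the heavy chain locus the segments lie 148.7 to 2570 kb from the first J segment, Ighj1, and on the kappa locus 18.4 to 3166 kb from Igkj1. Over segments, Spearman's correlation of log2 fold change with distance from J was -0.35 for 83 Ighv and 0.33 for 84 Igkv segments, which share the same 8 libraries and are given as a description. With wild-type spleen 1 left out it was -0.14 for 82 Ighv and 0.36 for 82 Igkv. Split by order from J into 3 groups of near equal size, 8 of the 29 J-proximal Ighv tested, 3 of 26 in the middle group and 1 of 28 J-distal were called higher, the last being Ighv1-74, against 2.9% of all genes. The Ighv counts were, with wild-type spleen 1 left out, 16 of 29, 12 of 26 and 11 of 27, against 3.29% of all genes. The group medians were then 1.57, 1.65 and 1.44, so the low J-distal count depended on that library. For Igkv the counts were 2 of 29, 5 of 28 and 6 of 27, and the middle count includes Igkv4-81, tested through its L2-fKO counts alone. Without wild-type spleen 1 the Igkv counts were 10 of 29, 11 of 26 and 15 of 27, with medians of 1.11, 1.40 and 1.53.

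Of the 6 position groups, 2 had shares of use that did not overlap between genotypes. Over all genes, counts lay wholly higher in L2-fKO in 9.61% and wholly lower in 10.8%. The J-distal group of Ighv made up 28.8%, 22.3%, 21.3% and 23.1% of Ighv counts per kb in wild type and 19.6%, 19.97%, 19.3% and 20.9% in L2-fKO. The lowest wild-type value was just above the highest L2-fKO value, and wild-type spleen 1 stood well above the rest. The J-proximal group of Igkv made up 36.7%, 32.8%, 31.7% and 35.8% in wild type and 27.2%, 26.1%, 30.9% and 30.4% in L2-fKO, also without overlap. The other shares overlapped. The J-proximal Ighv share was 36.5% to 46.9% in wild type and 41.1% to 48.8% in L2-fKO, the J-distal Igkv share 40.1% to 45.95% and 44.4% to 53.7%, the middle Ighv share 30.1% to 37.9% and 31.3% to 38.02%, and the middle Igkv share 19.4% to 24.2% and 20.2% to 24.7%. At the ends of the loci, the J-nearest heavy segment Ighv5-2 had a log2 fold change of 0.82 ± 0.32 and the farthest, Ighv1-85, -0.05 ± 0.67. The J-nearest kappa segment Igkv3-1 had 0.13 ± 0.58 and the farthest, Igkv2-137, 1.43 ± 0.46, and none of these 4 was called. The Ighv1-85 value was of either sign depending on the library left out.

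**Figure D4:**
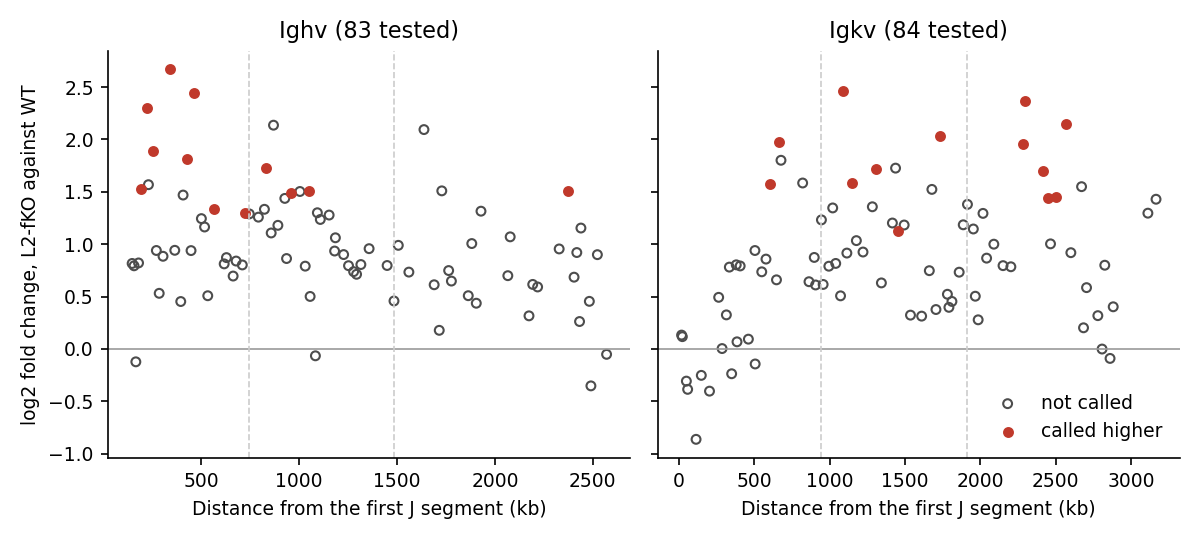
Log2 fold change of L2-fKO against wild-type spleen (y axis) for each tested Ighv (83, left) and Igkv (84, right) segment by its distance from the first J segment of its locus in kb (x axis), with called segments filled and dashed lines at the limits of the 3 groups. With all 8 libraries, called Ighv segments numbered 8, 3 and 1 from the proximal to the distal group and several J-proximal Igkv segments lie below 0, but without wild-type spleen 1, a fit not drawn here, the Ighv numbers were 16, 12 and 11 and no segment of either locus was below 0.

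Segments are grouped into families by sequence, and neighbours often belong to one family. Of 36 families the share of the chain's counts per kb did not overlap between genotypes in 11, higher in L2-fKO in 5 (Ighv6, Ighv7, Igkv2, Igkv15 and Igkv16) and lower in 6 (Ighv8, Ighv15, Igkv3, Igkv6, Igkv19 and Iglv3). Of the 173 single segments, the share did not overlap in 13 that were higher in L2-fKO and 17 that were lower. Counts lay wholly higher in 9.61% of all genes and wholly lower in 10.8%. Shares within a chain make up a whole, so a fall in some goes with a rise in others. The 7 Igkv3 segments, all J-proximal, had a median log2 fold change of -0.31, with 5 of the 7 below 0 and none called. Without wild-type spleen 1 all 7 were above 0, from 0.32 to 1.09 with a median of 0.70, and again none was called. Their share of Igkv counts per kb was 3.996% ± 1.10 in wild type and 1.89% ± 0.43 in L2-fKO. Igkv3-7 had the lowest value of all tested segments, -0.86 (edgeR adjusted p 0.474), with 115.1 counts in wild-type spleen 1 and 9.94 to 28.3 in the other wild-type spleens, and without that library it had 0.36 (edgeR adjusted p 0.699). The 8 Igkv6 segments had a median of 0.08, and without wild-type spleen 1 of 1.06 (0.52 to 1.29), with none called in either fit. Their share was 9.90% ± 2.18 and 6.03% ± 0.59. Neither share overlapped between genotypes. The 4 Igkv2 segments, which lie far from J, had a median of 1.57 with 3 called (2.06 with 4 called without wild-type spleen 1). Their share was 3.12% ± 0.44 and 4.47% ± 0.31. The 25 Igkv4 segments had a median of 1.12 with 5 called, among them Igkv4-81, tested through its L2-fKO counts alone. Without wild-type spleen 1 the Igkv4 median was 1.62 with 11 of 23 called. Of all genes 2.9% were called higher in the main fit and 3.29% without that library.

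On the heavy chain, the 39 Ighv1 segments, the largest family, had a median log2 fold change of 0.77 with 1 of the 38 tested called, a share near the 2.9% of all genes. Without wild-type spleen 1 the median was 1.44 and 15 of 37 were called, against 3.29% of all genes. They made up 35.3% ± 3.97 of Ighv counts per kb in wild type and 30.3% ± 2.07 in L2-fKO, with overlap. The 3 Ighv7 segments had a median of 1.29 with 2 called, and their share was 3.39% ± 0.89 and 5.65% ± 1.03. The 2 Ighv6 segments had values near 1.49 with 1 called, and their share was 4.12% ± 0.65 and 5.53% ± 0.33. Neither of these shares overlapped. The 8 Ighv2 segments had a median of 0.94 with 3 called, among them Ighv2-9-1, and their share overlapped. The 4 Ighv8 segments made up a lower share without overlap, at 4.67% ± 0.59 in wild type and 3.37% ± 0.26 in L2-fKO, as did the lone Ighv15 segment, at 0.249% ± 0.0310 and 0.0671% ± 0.0359.

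Use was spread over many segments in both genotypes. The effective number of segments, the number of equally used segments that would give the same Shannon entropy, was 59.4 ± 3.14 for Ighv in wild type and 55.9 ± 1.63 in L2-fKO (n = 4 each). For Igkv it was 53.8 ± 3.79 and 49.3 ± 1.35, and both overlapped. The most used Ighv segment of a library held 4.47% to 8.76% of Ighv counts per kb, and the most used Igkv segment 5.81% to 7.41%. Both highest shares were in wild-type spleen 4, Ighv2-2 with 8.76% and Igkv4-53 with 7.41%, against at most 3.36% for Ighv2-2 in any L2-fKO library. The leading Ighv segment was Ighv1-26, Ighv3-6, Ighv3-6 and Ighv2-2 in wild-type spleens 1 to 4 and Ighv5-17, Ighv2-9-1, Ighv9-3 and Ighv5-17 in L2-fKO spleens 1 to 4.

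V segments varied more between animals of 1 genotype than the median gene did. The median SD of log2(normalized count + 1) was 0.92 in wild type and 0.66 in L2-fKO over the tested segments, against 0.24 and 0.27 over all genes tested. Among genes with a mean of at least 100 it was 0.86 and 0.62 for 71 segments, against 0.20 and 0.22. In wild-type spleens 2 to 4 alone it was 0.50 for the segments and 0.21 for all genes. Some segments were high in 1 library. Ighv9-4 had 507 normalized counts in L2-fKO spleen 4 and 31.3 to 90.8 in the other 7, 8.98 times their median. Its log2 fold change of 2.14 ± 0.67 was not called (edgeR adjusted p 0.0638) and was 0.87 at its lowest with a library left out. Igkv5-39, Ighv1-22 and Ighv5-16 were 5.98, 4.68 and 4.11 times the median of the other 7 in the same library. Ighv2-9-1 was 6.12 times that median in L2-fKO spleen 2, but there the other L2-fKO libraries were high too.

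The V counts were also set against the constant regions to which V exons are spliced. Ighv reads per 100 reads of Ighm, the constant region of IgM, were 15.2, 11.4, 17.9 and 12.6 in wild type and 20.98, 20.6, 20.6 and 21.9 in L2-fKO. Igkv reads per 100 reads of Igkc, the kappa constant region, were 70.1, 51.0, 84.97 and 56.1 in wild type and 91.8, 95.0, 88.0 and 93.8 in L2-fKO. Both ratios were higher in every L2-fKO library, and both varied much less among the L2-fKO spleens. Iglv reads per 100 reads of the lambda constant regions averaged 26.1 ± 2.39 and 44.9 ± 3.21, again without overlap. Wild-type spleen 1, high in V counts, was the second highest of its group in the Ighv and Igkv ratios, behind wild-type spleen 3, the lowest in V counts.

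**Figure D5:**
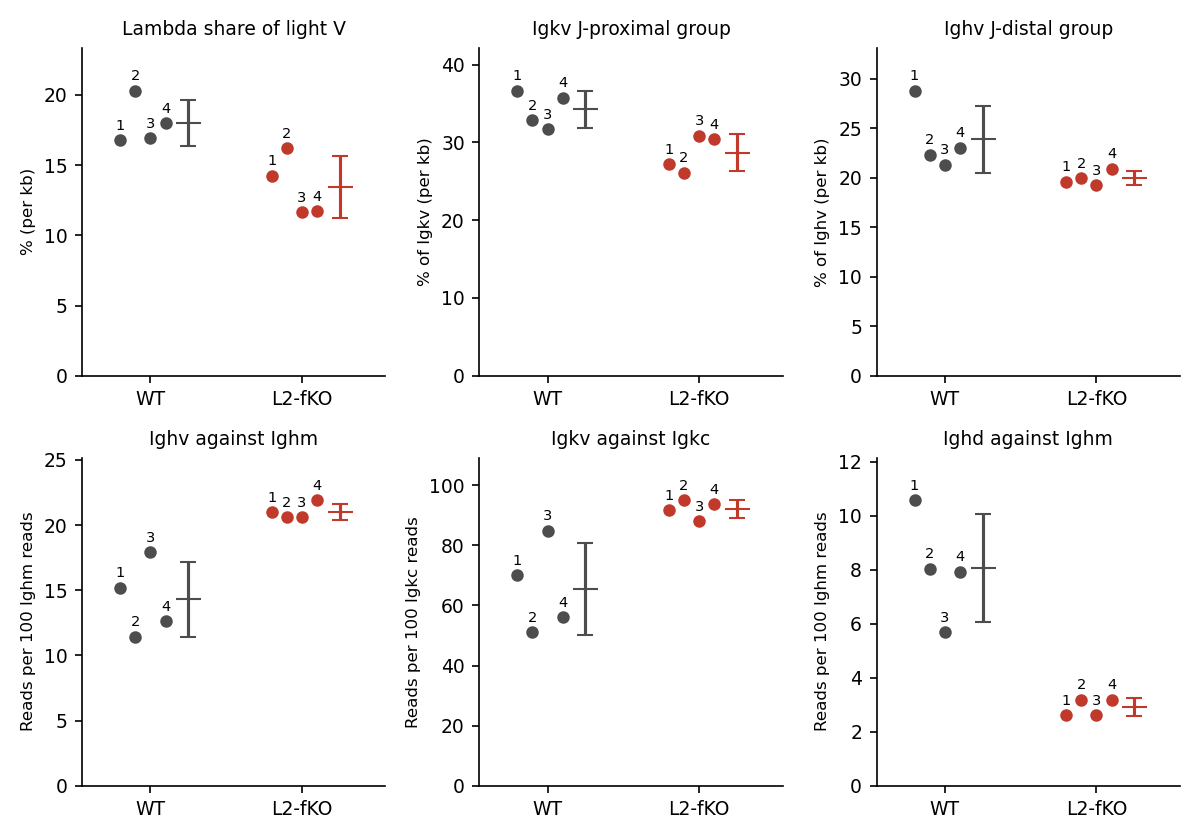
Shares of V use (top, percent of counts per kb) and reads per 100 reads of a constant region gene (bottom) in each spleen library (y axes, from 0), numbered by replicate, with the mean and SD of each genotype (n = 4). The 2 genotypes do not overlap in any of the 6 panels, and Igkv reads per 100 Igkc reads, for example, were 51.0 to 84.97 in wild type and 88.0 to 95.0 in L2-fKO. The panels are a choice of quantities without overlap. Others that overlapped, such as the remaining position shares and the effective numbers of segments, are not drawn here.

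Of the 10 constant region genes tested, 1 was called. Ighm had 62225, 34899, 15826 and 28791 normalized counts in wild type and 48459, 40788, 33964 and 80232 in L2-fKO, with a log2 fold change of 0.52 ± 0.40 (edgeR adjusted p 0.415). Igkc had 0.46 ± 0.42, and Iglc1, Iglc2 and Iglc3 had -0.12, -0.46 and -0.26, and none was called. Ighd, the constant region of IgD that mature naive B cells carry beside IgM, had -1.06 ± 0.53 (edgeR adjusted p 0.215), and its reads per 100 Ighm reads were 5.68 to 10.6 in wild type and 2.61 to 3.19 in L2-fKO. Ighg3, the constant region of an IgG subclass, was called higher at 1.32 ± 0.29 (edgeR adjusted p 0.0178), with 93.4 to 111 counts in wild type and 134 to 392.2 in L2-fKO, and was no longer called (edgeR adjusted p 0.0553 to 0.0578) if wild-type spleen 2, wild-type spleen 4 or L2-fKO spleen 1 was dropped. Ighg2b and Ighg2c, of other IgG subclasses, and Igha, of IgA, had 0.72, -0.17 and -0.76, and none was called. Ighg2c was at 488 in wild-type spleen 4 and at 7.07 to 33.8 in the other wild-type spleens.

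Genes that make, assemble or secrete antibody were read from the same fit. Jchain, which links IgM and IgA into polymers in antibody-secreting cells, rose in L2-fKO from 1317, 946, 454 and 906 normalized counts to 3310, 2278, 3209 and 4676, a log2 fold change of 1.90 ± 0.31 (edgeR adjusted p 0.00424). Of the 12 genes of the plasma cell list 2 were called higher, Jchain and Tnfrsf17, the BCMA receptor of plasma cells (2.502 ± 0.38, from 2.02 to 5.05 counts in wild type to 12.2 to 26.4 in L2-fKO). The list had 11 of 12 values above 0 and a median of 0.66, and none of its genes was at 0 in any library. Xbp1, a factor for the secretory machinery, and Sdc1, a plasma cell surface protein, had 0.90 ± 0.10 and 0.74 ± 0.12 (edgeR adjusted p 0.000500 and 0.00431), under the fold limit. The summed list was 12190 to 15283 in wild type and 21461 to 24329 in L2-fKO, and its part in the V levels was not tested.

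General B cell genes were read beside the V segments. Of the 14 genes of the pan-B list, among them Ms4a1, which encodes the surface protein CD20, none was called, 1 was above 0 (Tnfrsf13c, the BAFF receptor) and the median log2 fold change was -0.49. The list summed to 116437, 54366, 24146 and 47030 in wild type and 43415, 39328, 29152 and 64614 in L2-fKO. Wild-type spleen 1 was thus the highest wild-type library for B cell genes as for V segments. In the pan-B sum it was above every L2-fKO spleen, but in summed V counts, at 27899, it was below L2-fKO spleens 1 (28732) and 4 (45461). Without that library the median was 0.03 and Tnfrsf13c was called higher, at 1.68 (edgeR adjusted p 0.0133). The ratio of summed V counts to Cd79a, a signalling chain of the B cell receptor, was 1.55, 1.48, 2.32 and 1.48 in wild type and 4.92, 4.28, 5.45 and 4.98 in L2-fKO, without overlap. The ratio to Jchain went the other way, at 12.01 to 21.2 in wild type and 6.21 to 9.73 in L2-fKO.

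The 9 genes of the mature follicular or marginal zone B list had a median of -0.58, and none was called. The genes of recombination and of the surrogate light chain, which stands in for the light chain in pre-B cells, were not called either. Rag1 and Rag2, which cut DNA at V, D and J segments, had log2 fold changes of 0.92 ± 0.62 and 0.16 ± 0.47. Dntt, which adds bases at the joins, had -0.29 ± 0.52, and Vpreb1, Vpreb2, Vpreb3 and Igll1 had 0.02, -0.21, -0.86 and 0.19. Without wild-type spleen 1 the Dntt value was 0.51. None of the 11 genes of the pro-B and pre-B list, the 12 of V(D)J recombination and end joining, the 7 of B-1 cells or the 9 of class switch and hypermutation was called, with medians of -0.12, -0.12, -0.21 and -0.05. The pro-B and pre-B median was 0.32 without wild-type spleen 1, with none called.

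Other cell types differed between the same spleens. All 8 genes of the megakaryocyte and platelet list were lower in L2-fKO, with sums of 22881 to 46802 in wild type and 1158 to 1408 in L2-fKO. All 8 of the neutrophil and myeloid progenitor list were lower too, with sums of 168894 to 271908 and 10914 to 62478. No gene of either list was at 0. Of the 7 pancreatic acinar genes 4 of the 5 tested were lower, as wild-type spleens 1, 2 and 4 held 6966 to 21274 summed counts of them while wild-type spleen 3 held 1638 and the L2-fKO spleens 1253 to 2171, and Prss2 was at 0 in L2-fKO spleen 2. Nearly all of the low sums was Cela1, at 1593 in wild-type spleen 3 and 1227 to 2091 in L2-fKO. Every other acinar gene had at most 23.9 in each of those libraries. Without wild-type spleen 1 the acinar genes called lower were 2, Ctrb1 and Cpa1, while Pnliprp1 and Cel fell below the filter and were not tested. The part of these cell types in the V differences was not tested. With library sizes computed without immunoglobulin genes 25 segments were again called higher. In the main fit T cell genes, with 0 of 11 called, had a median of -0.15.

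In the ovary B cell genes were low, with Cd79a at 13.8 to 60.6 normalized counts, and V reads were few. The ovary comparison names 2 V segments, Igkv6-32 and Ighv1-34, and 0.73% of the 18504 genes tested there were called higher by limma. Igkv6-32, the only one of the 173, had normalized values of 4.87, 8.36 and 13.8 in wild-type ovaries and 12.5, 24.7 and 21.6 in L2-fKO ovaries, from 4 to 24 reads per library. Its difference on the log2(value + 1) scale was 1.09 ± 0.45 (limma adjusted p 0.286), the groups overlapped, and it was not called. In the spleen Igkv6-32 had 54.7 to 300 counts in wild type and 122 to 407 in L2-fKO, a log2 fold change of 0.66 ± 0.51 that was not called. Ighv1-34, with only 67 reads over the 8 spleens, had ovary values of 0, 1.67 and 1.84 in wild type and 2.68, 31.9 and 43.3 in L2-fKO, was below the filter, and was high in 2 animals. Igkc had values of 12.2, 4.18 and 8.26 in wild-type ovaries and 46.5, 38.0 and 12.5 in L2-fKO ovaries and was not called (limma adjusted p 0.189).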

How the data were processed

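Spleen and ovary poly(A) libraries were grouped by tissue and genotype, and 1 of 2 wild-type spleens labelled 3 was numbered 4. Per the labels and methods, the authors used Trimmomatic 0.36 for trimming, STAR 2.5.2b for mapping to GRCm38, and counted unique exonic reads by strand with featureCounts (Subread 1.5.2). The deposited spleen values are raw counts. The deposited ovary values are signal, counts divided by a size factor, and 100% of them gave whole reads (within 0.01 read). The methods are stated for the spleen only. Reads across V(D)J joins may not align in full. The authors also deposited log2 fold changes and p-values from their DESeq2 comparison, which were not used.

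Spleen counts were tested with edgeR 4.0.16 (TMM, quasi-likelihood, at least 10 counts in at least 4 libraries, all 8 spleens). Ovary values were tested with limma 3.58.1 with an intensity trend on log2(value + 1), for genes at 10 or more in 3 or more libraries, and fold changes there are on that scale. Each adjusted p is Benjamini-Hochberg over all genes tested in R 4.3.3. Normalized spleen counts are counts divided by TMM library size and scaled to the mean library. DESeq2 1.42.0, other filters and normalizations, sex, a replicate block and each library left out were alternatives. In simulated counts edgeR recovered 192 of 200 genes changed in the spleen with 8 false calls of 16690 genes, and limma 187 of 200 in the ovary with 8 of 18341. Genes were drawn independently of each other, with a planted change larger than the V segments' median log2 fold change of 0.86. The tested segments had a median edgeR dispersion, a measure of spread between libraries, of 0.217, against 0.0422 over all genes tested. These figures thus do not give the recovery or error rate for V segments. Transcript lengths, positions and sequences came from GENCODE M21, compared with edlib 1.3.9.post1. Counts per library limit the precision to counting and animal-to-animal error.

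Segments named were the 6 Ighv, 6 Igkv and 3 Iglv highest per kb, the 10 called with the largest change and a mean of at least 100, the 6 most raised in 1 library, those in the ovary and those at the ends of each locus. Members and lists were chosen with earlier results of these data known. Sums and shares over segments were given no test.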

Additional observations from a re-analysis of the deposited data

Results flagged for a closer look

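In a group of 4 spleens, a library was set apart when its gap to the next took up a larger part of the group's range than Dixon's 95% critical value. Of 130 groups examined, 13 had such a library. Chance flags about 1 in 20 groups, but 12 of the groups belong to 6 segments named because 1 library was high in them, which holds for 4 of the 13 cases, and the other 118 groups had 9. Wild-type spleen 1 was set apart 5 times upward in genes of B cells: Ighv5-16 at 149 normalized counts (others 33.8 to 44.5), Ighv1-26 at 404 (114 to 142), Ighv1-22 at 175 (63.6 to 79.8), Ighv9-3 at 378 (106 to 143) and Dntt at 1146 (219 to 324). Igll1, of the surrogate light chain, was a further case in that library at 763 (206 to 264). L2-fKO spleen 4 was set apart in Igkv2-137 at 251 (106 to 123.2), Ighv7-1 at 466 (292 to 316), Ighv9-4 at 507 (56.5 to 90.8) and Ighv2-5 at 463 (135 to 180). Wild-type spleen 4 was set apart in Ighg2b at 235 (36.8 to 67.9) and Ighg2c at 488 (7.07 to 33.8), and L2-fKO spleen 1 in Ighg2b at 337 (75.0 to 119). The segments share B cells as a source, so the cases within a library are not independent.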

How the results depend on the processing

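The count of 25 segments called higher was 25 with RLE normalization, with adjusted p as the only limit and with library sizes without immunoglobulin genes, and 18 with at least 10 counts in all 8 libraries. It was 49 with every gene of at least 1 count, 15 with sex as a covariate, 61 in male libraries, 47 by DESeq2, 5 to 75 with 1 library left out and 74 without wild-type spleen 1 and L2-fKO spleen 4, an alternative chosen after seeing the data. Over all genes, 496 of 16911 were called higher with RLE normalization and 492 of 16911 with library sizes without immunoglobulin genes. With at least 10 counts in all 8 libraries 385 of 15133 genes were, and with at least 1 count 607 of 35029. No spleen fit called a segment lower. With every V segment of the count table the effective number was 65.6 for Ighv in wild type, 59.0 in L2-fKO and 50.9 for Igkv in L2-fKO. The lambda share and the J-proximal and J-distal shares moved by less than 1 SD under their alternatives. The ovary fits called no V segment (Igkv6-32 had a limma unadjusted p of 0.0449 and an edgeR adjusted p of 0.2996). The cause of each move was not tested.

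The study describes its spleens as age-matched pairs of animals, but the labels do not give which animals form them, so the fits treat the libraries as unpaired. Whether the replicate numbers mark these pairs is not known. Deviations of equally numbered wild-type and L2-fKO spleens correlated at -0.14, 0.09, 0.18 and -0.29, and wild-type spleen 1 went best with L2-fKO spleen 4 (0.44). Deviations from the mean of so few libraries depend on each other, so these correlations cannot decide it. With the replicate block 27 segments were called higher, 19 of them among the 25, where 411 of all 16911 genes tested were called higher. The number of wild-type spleen 4 was assigned here and not taken from its label, so its match in the block was too.

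Of 840 values of named genes over the alternatives 706 kept their direction and side of the call limits, 57 lost and 39 gained a call, and 38 changed sign. No gene that changed sign was called. In male libraries the log2 fold change became 0.47 for Iglv3, -0.0054 for Igkv3-1, 0.65 for Ighv1-85, 0.20 for Iglc1, 0.53 for Dntt and 0.15 for Vpreb2. Without both wild-type spleen 1 and L2-fKO spleen 4 it became 0.29 for Iglv3, 0.40 for Ighv1-85, 0.084 for Iglc1, 0.68 for Dntt and 0.12 for Vpreb2. With sex as a covariate it became 0.14 for Ighv1-85 and 0.12 for Ighg2c, and with the replicate block 0.22 for Ighv1-85, 1.37 for Ighg2c and 0.020 for Iglc1. With 1 library left out it ranged from -0.59 to 0.53 for Iglv3, -0.26 to 0.48 for Igkv3-1, -0.59 to 0.94 for Ighv1-85, -0.0013 to 1.70 for Ighg2b, -1.11 to 2.73 for Ighg2c, -0.39 to 0.33 for Iglc1, -0.55 to 0.11 for Iglc3, -0.090 to 0.83 for Rag2, -0.62 to 0.51 for Dntt, -0.23 to 0.65 for Vpreb1, -0.39 to 0.19 for Vpreb2 and -0.0075 to 0.83 for Igll1.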
